A study of Homo sapiens with 6 samples.

Results

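The histone genes examined here are the rows of a whole-transcriptome table whose symbols carry the older histone prefixes: HIST1H, HIST2H, HIST3H and HIST4H for the replication-dependent genes, and H1F, H2AF and H3F for the variants. Of 68 rows with such a prefix (55 replication-dependent, 13 variant), 59 had a value above 0 in at least 3 of the 6 libraries and were kept: 47 replication-dependent and 12 variant genes, out of 17187 rows in all. The libraries came from HT-1080, a human fibrosarcoma line from ATCC with the genotype given as WT, all of it 1 line. The 3 control libraries were from cells given PBS, and the other 3 from cells given recombinant IFNg, the cytokine interferon gamma, at 10 ng/ml for 8 h. Total RNA was depleted of ribosomal RNA and made into stranded libraries, a preparation that does not select for poly(A) tails. Whether a group's 3 libraries are separate cultures is not in the labels, and every p-value measures the spread between these libraries only, which may be technical.

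Histones are the proteins around which DNA is wound: H2A, H2B, H3 and H4 form the core of the nucleosome and H1 binds the linker. Replication-dependent histone genes lie in clusters, have no introns and are transcribed mainly in S phase; their mRNAs end in a conserved stem-loop rather than a poly(A) tail, and the stem-loop binding protein SLBP governs their processing and stability. Variant histones, also called replacement histones, are mostly encoded by single genes outside the clusters, give polyadenylated mRNAs and are made through the whole cell cycle. Interferon gamma slows the growth of many cell types. In bulk RNA, a change in the share of cells in S phase cannot be told apart from a change in histone RNA per S-phase cell.

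The members are shown first by the features that set the classes apart. In GENCODE release 29 (GRCh38), all 37 kept HIST1 genes lie on chromosome 6, between positions 25726132 and 27893843, while 7 HIST2 and 2 HIST3 genes lie on chromosome 1 and HIST4H4 on chromosome 12. Transcript models with at least 36 annotated bases after the stop codon were searched for the conserved histone stem-loop. It was found in 22 of 26 such replication-dependent genes, and 19 others have models that end too soon to be searched. Among variants it was found in 1 of 11, H2AFX, which encodes H2A.X, the H2A phosphorylated at DNA breaks and a known exception among variants in giving both a stem-loop and a polyadenylated mRNA. Across the whole annotation, 44 of 57133 gene symbols (0.077%) have a transcript with a match anywhere. The 6 examples below show forms found among the members, with the 16-base stem-loop in capitals and 6 bases on either side:
H2AFX: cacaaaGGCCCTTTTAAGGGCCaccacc
HIST1H2AG: accaacGGCTCTTTTCAGGGCCacccac
HIST1H2BC: cccaaaGGCTCTTTTAAGAGCCacccag
HIST1H3H: cccaaaGGCTCTTTTCAGAGCCacccac
HIST1H4B: tccaatGGCCCTTTTCAGGGCCgcccac
HIST1H4E: atcaaaGGCCCTTTTCAGGGCCgcccac
The form of HIST1H3H was shared by 12 members of the H2A, H2B and H3 families, that of HIST1H4B by 5 H4 genes, and that of HIST1H2BC by 3 H2B genes. The forms of H2AFX and HIST1H2AG each occurred once. These stem-loops lie in the 3′ untranslated ends at chr11:119094898-119094913 (minus strand, H2AFX), chr6:27133515-27133530 (plus strand, HIST1H2AG), chr6:26123472-26123487 (minus strand, HIST1H2BC), chr6:27810516-27810531 (plus strand, HIST1H3H), chr6:26026901-26026916 (minus strand, HIST1H4B) and chr6:26205001-26205016 (plus strand, HIST1H4E).

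At the 5′ end, RefSeq (GRCh38.p14) gave promoters for 42 replication-dependent and 9 variant members, and the 250 bases before each start were searched on both strands for 3 motifs. The first was the TATA box written as TATAAA, the next was the CCAAT box, and the last was the octamer ATTTGCAT, known from H2B promoters. Matches of different motifs, or of TATAAA and its own reverse complement, may overlap and were each counted. TATAAA was in 71.4% of replication-dependent and 44.4% of variant promoters, against 10.7% of all 35116 promoters. CCAAT was in 88.1% and 77.8%, against 32% of all. The octamer was in 47.6% and 11.1%, against 1.63% of all: it was found in 12 of 16 H2B and 8 of 11 H2A promoters, in none of the H1, H3 and H4 promoters, and in the variant H3F3B. The last 110 bases before the start are printed for 6 members, with matches to any of the 3 motifs in capitals. HIST1H2BJ and HIST1H2AG are head-to-head neighbours:
HIST1H2BJ: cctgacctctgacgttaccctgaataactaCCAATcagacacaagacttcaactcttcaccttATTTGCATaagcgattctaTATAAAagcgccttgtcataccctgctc
HIST1H2AG: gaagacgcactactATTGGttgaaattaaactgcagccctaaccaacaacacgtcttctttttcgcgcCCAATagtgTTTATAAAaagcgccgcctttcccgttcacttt
HIST1H3A: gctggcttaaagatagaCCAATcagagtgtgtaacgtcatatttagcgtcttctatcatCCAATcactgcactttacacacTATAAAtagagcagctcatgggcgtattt
HIST1H4B: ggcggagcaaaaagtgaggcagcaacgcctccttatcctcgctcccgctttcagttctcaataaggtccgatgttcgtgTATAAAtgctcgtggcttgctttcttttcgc
H2AFX: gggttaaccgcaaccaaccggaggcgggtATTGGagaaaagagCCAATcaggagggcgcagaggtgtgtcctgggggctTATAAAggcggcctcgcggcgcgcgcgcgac
H2AFZ: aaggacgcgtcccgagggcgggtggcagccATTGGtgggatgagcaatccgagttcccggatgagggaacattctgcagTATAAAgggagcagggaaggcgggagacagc
They lie at chr6:27132796-27132905 (minus strand, HIST1H2BJ), chr6:27132933-27133042 (plus strand, HIST1H2AG), chr6:26020341-26020450 (plus strand, HIST1H3A), chr6:26027284-26027393 (minus strand, HIST1H4B), chr11:119095466-119095575 (minus strand, H2AFX) and chr4:99950276-99950385 (minus strand, H2AFZ). Each of the 6 holds TATAAA, and HIST1H4B holds no CCAAT in the whole 250 bases. A match is a description of the letters and not of a bound site.

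The deposited values are read counts scaled for library depth, called normalised read counts below. The libraries held between 59556948 and 83501954 reads counted to genes, so that 1 read was worth between 0.835 and 1.16 units. The values are not scaled to transcript length, and levels of different genes are therefore not ranked as amounts of RNA. Of the mesenchymal markers, VIM lay between 314888 and 406141, while the leukocyte marker PTPRC did not exceed 44.6. Epithelial markers were mixed: KRT19 did not exceed 26.9, but KRT8 was between 13726 and 20748 in the 6 libraries. The 6 epithelial markers in the table summed to between 23392.5 and 34145.3, so KRT8 was not the only one with many reads. Libraries of the same group differed by more than sampling noise in every pair (chi-square over its degrees of freedom, 15.8 to 115), and none was counted as a repeat of another. These values are not limited to histone genes. Control 3 gave 115 and 93.0 against controls 1 and 2, which gave 40.8 against each other. IFNg 3 gave 61.9 and 57.6 against IFNg 1 and 2, which gave 15.8 against each other. Control 3 stood apart from controls 1 and 2 in the histone genes, as described below, and the histone results and the counts of the gene lists are given with and without it.

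No histone gene passed the test between IFNg and control in the 6 libraries. Of the 47 replication-dependent genes, 0 were called higher and 0 lower by limma at an adjusted p of 0.05, and likewise 0 and 0 of the 12 variants, where 4.32% of all 15546 genes tested were called (3.27% higher, 1.05% lower). At an unadjusted p under 0.05 there were 0 replication-dependent genes and 1 variant, H1F0. The smallest adjusted p was 0.342 among replication-dependent genes and 0.214 among variants. On the reads recovered from the table, edgeR and DESeq2 also called 0 of either class (4.69% and 6.53% of genes called), with 1 and 3 replication-dependent genes and 1 and 1 variants at an unadjusted p under 0.05. The share of all genes under that unadjusted threshold is not given here, so nothing is drawn from those counts.

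The median log2 difference (IFNg minus control) was 0.12 over the replication-dependent genes, with 33 of 47 above 0, and 0.01 over the variants, with 7 of 12 above 0, beside -0.01 over all genes tested. On the recovered reads the median of the replication-dependent genes was 0.022 in both edgeR (23 of 43 above 0) and DESeq2 (25 of 47 above 0), and that of the variants was -0.025 in both. In the limma fit without control 1, 13 of 47 replication-dependent genes were above 0 and their median was -0.094. In 1 replication-dependent gene all IFNg values lay above all control values, where 10.7% of all genes tested did so, and in 0 all lay below, where 9.28% did so. That gene was HIST1H2BO, an H2B gene named after its values were seen, which did not exceed 4.65 in any library. Of the variants, 1 was above in every library (H2AFY2) and 0 below.

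The sums over each class show where the spread lay. Summed over the 47 replication-dependent genes, the normalised read count was 235410, 254361 and 435495 in controls 1, 2 and 3, and 298885, 280342 and 362551 in IFNg 1, 2 and 3. Control 3 held the highest sum of all 6 libraries and controls 1 and 2 the lowest, so the IFNg sums lay inside the range of the controls. The group means were 308422 ± 110455 (SD, n = 3) for control and 313926 ± 43119 (SD, n = 3) for IFNg, a ratio of 1.02. As a share of the library, these genes took from 0.335% of reads in control 1 to 0.638% in control 3.

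**Figure D1:**
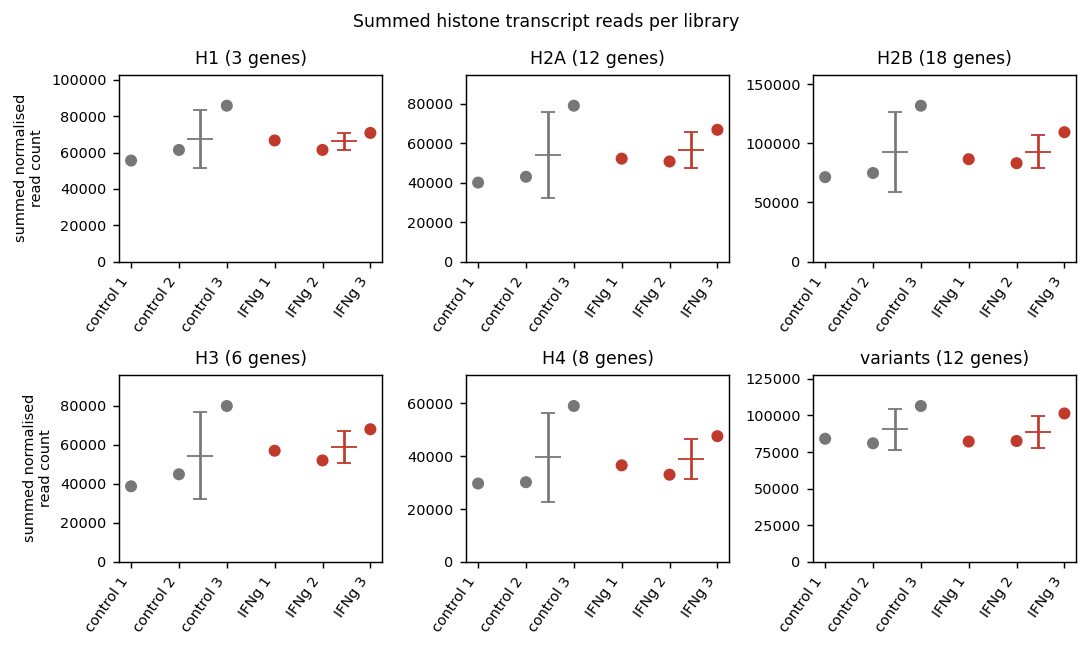
Summed normalised read count in each of the 6 libraries, 1 point per library, for the replication-dependent families and the variants; cross bars are the group mean ± SD (n = 3), and each axis starts at 0. In each family the control 3 point is the highest, and in the replication-dependent sum it stood at 1.78 times the mean of controls 1 and 2, against 1.29 times for the variants.

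The variant sum moved less. Over the 12 variants it was 84062, 80937 and 106415 in controls 1, 2 and 3, and 82148, 82518 and 101323 in IFNg 1, 2 and 3. The library numbered 3 was the highest in each group, and the groups overlapped. Control 3 was 1.29 times the mean of controls 1 and 2, IFNg 3 was 1.23 times the mean of IFNg 1 and 2, and the first 2 IFNg libraries were 0.998 times the first 2 controls. For the replication-dependent sum those 3 ratios were 1.78, 1.25 and 1.18.

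Linker histone H1 compacts nucleosome arrays, and its replication-dependent genes with the highest values were HIST1H1C and HIST1H1E. HIST1H1C was at 34392, 36273 and 49354 in controls 1 to 3 and at 39644, 36489 and 43050 in IFNg 1 to 3. HIST1H1E was at 21175, 25127 and 36250 in the controls and at 26993, 24950 and 27712 in IFNg. In both, control 3 was the highest library and the IFNg values lay within the range of the controls, with log2 differences of 0.01 ± 0.13 (SE) and -0.02 ± 0.16 (SE). HIST1H1T, the testis H1, was at 19.3, 25.9 and 173 in the controls and at 6.50, 16.5 and 33.6 in IFNg. Its log2 difference of -1.46 ± 0.87 (SE, limma adjusted p = 0.486) was the largest in size among members with a mean of at least 10, and the single high value was control 3, at 7.67 times the mean of the other controls.

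In the H2A family, HIST1H2AG was at 7736, 9400 and 17340 in controls 1 to 3 and at 11792, 11435 and 13576 in IFNg 1 to 3. HIST1H2AH was at 4524, 5606 and 12849 in the controls and at 8207, 7718 and 10828 in IFNg. HIST1H2AE was at 5010, 5094 and 8819 in the controls and at 6148, 5479 and 8065 in IFNg. All 3 showed 1 order: controls 1 and 2 lowest, the IFNg libraries between, and control 3 highest. The log2 differences were 0.18 ± 0.22, 0.36 ± 0.29 and 0.09 ± 0.20 (SE), with limma adjusted p-values of 0.793, 0.639 and 0.897. Over the family of 12 genes the summed value was 40001, 42953 and 78958 in the controls and 52139, 50687 and 66757 in IFNg.

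H2B pairs with H2A in the nucleosome, and its 3 members with the highest values were HIST1H2BK, HIST1H2BC and HIST1H2BJ. HIST1H2BK, for which polyadenylated forms are known, was at 16070, 15311 and 24124 in the controls and at 18452, 16402 and 24160 in IFNg, and control 3 and IFNg 3 stood level at the top. HIST1H2BC was at 12107, 13875 and 23179 in the controls and at 14975, 14799 and 17111 in IFNg. HIST1H2BJ was at 8371, 9586 and 18549 in the controls and at 11473, 11284 and 14950 in IFNg. Control 3 was the highest library of the last 2 genes, and none of the 3 separated the groups, with log2 differences of 0.10 ± 0.17, -0.01 ± 0.19 and 0.13 ± 0.23 (SE). HIST1H2BJ and its head-to-head neighbour HIST1H2AG stood at 2.07 and 2.02 times the other controls in control 3. Another head-to-head pair, HIST1H2BK and HIST1H2AH, stood at 1.54 and 2.54, so a like ratio was not general to neighbours.

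Some H2B members had few reads. HIST1H2BA, a testis-type H2B, was at 0, 11.7 and 45.7 in the controls and at 3.72, 18.6 and 17.4 in IFNg, at a log2 difference of 0.51 ± 1.29 (SE) and overlapping groups. The mean of HIST1H2BA was lower in IFNg (13.2) than in control (19.1). Without control 1, where it was at 0, the log2 difference was -1.03, so its sign is not settled. HIST2H2BA, a transcribed H2B pseudogene, was at 96.4, 94.4 and 150 in the controls and at 162, 132 and 243 in IFNg. Its IFNg values were higher than those of controls 1 and 2, but control 3 lay above IFNg 2, and the log2 difference was 0.64 ± 0.36 (SE, limma adjusted p = 0.46).

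H3 carries many of the marked lysines of chromatin. HIST1H3C was at 12342, 15602 and 25557 in controls 1 to 3 and at 19645, 16656 and 21018 in IFNg 1 to 3. HIST1H3H was at 11079, 12618 and 22347 in the controls and at 15641, 14653 and 19629 in IFNg, and HIST1H3B at 11811, 12329 and 20585 in the controls and at 14987, 14923 and 18014 in IFNg. Control 3 was again the highest and controls 1 and 2 the lowest in each. The log2 differences were 0.16 ± 0.21, 0.18 ± 0.21 and 0.14 ± 0.18 (SE), and none passed.

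HIST1H3A, an H3 gene with lower values, had a wider spread. It was at 1323, 1594 and 4735 in the controls and at 3161, 2930 and 4121 in IFNg. Control 3 stood at 3.25 times the mean of controls 1 and 2 and above each IFNg library, while all IFNg libraries were above controls 1 and 2. Its log2 difference was 0.64 ± 0.36 (SE, limma adjusted p = 0.453) over the 6 libraries.

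H4 pairs with H3 in the nucleosome core. HIST1H4B was at 8752, 9047 and 17738 in the controls and at 12082, 11754 and 15775 in IFNg, and HIST1H4H at 6858, 7283 and 14367 in the controls and at 8518, 7911 and 11173 in IFNg. HIST1H4C was at 6990, 7288 and 13242 in the controls and at 8082, 6653 and 9656 in IFNg. In all 3 control 3 was the highest, and IFNg 2 was the lowest library of HIST1H4C. The log2 differences were 0.22 ± 0.22, 0.02 ± 0.23 and -0.13 ± 0.21 (SE).

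HIST1H4E, named after its values were seen, departed from that order. It was at 3137, 2017 and 3820 in the controls and at 2137, 2221 and 2190 in IFNg. Controls 1 and 3 were the high libraries and control 2 the lowest of all 6, so the groups overlapped, and the log2 difference was -0.41 ± 0.19 (SE, limma adjusted p = 0.342). Without control 2 it was the single replication-dependent gene called lower, with a limma adjusted p of 0.0273, where 0.238% of all genes were called lower. That fit leaves out the lowest library of HIST1H4E, a gene named after its values were seen, so the p-value is not support for a fall. Its stem-loop, printed above, has the same 16 bases as that of HIST1H4B.

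**Figure D2:**
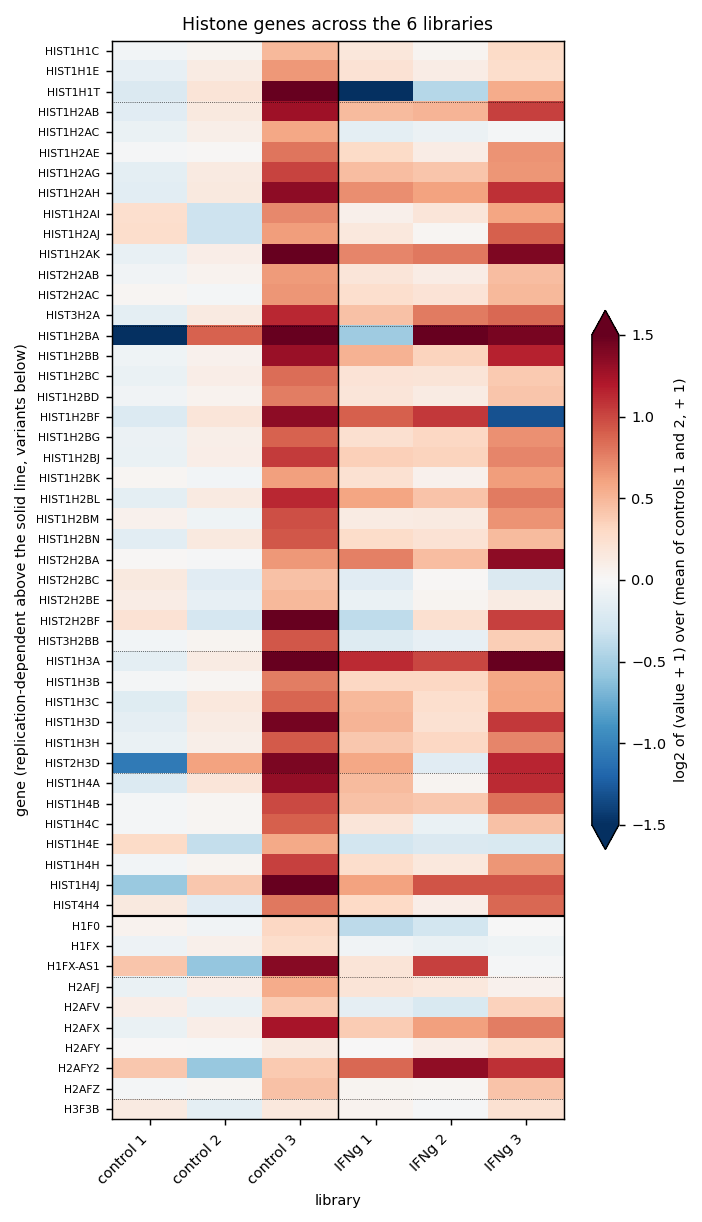
Log2 of each value + 1 over the mean of controls 1 and 2 + 1, for the 53 kept histone genes with a mean of at least 10 (vertical axis, replication-dependent above the solid line and variants below) in the 6 libraries (horizontal axis). The control 3 column is the most strongly raised: 39 of the 43 replication-dependent genes with a mean of at least 10 had their highest value there.

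HIST1H2AC and HIST3H2BB, also named after their values were seen, did not show the order of most members. HIST1H2AC, an H2A gene with known polyadenylated forms, was at 5333, 6092 and 8525 in the controls and at 5174, 5369 and 5602 in IFNg. HIST3H2BB, an H2B gene on chromosome 1, was at 1146, 1216 and 2254 in the controls and at 1032, 1084 and 1527 in IFNg. In both, IFNg 1 and 2 were no higher than control 2, control 3 was the highest library, and the log2 differences were -0.28 ± 0.15 and -0.29 ± 0.25 (SE) over the 6 libraries and -0.08 and 0.02 without control 3. HIST1H2BF, at 31.1, 40.9 and 92.5 in the controls and at 67.8, 76.5 and 13.9 in IFNg, had IFNg 1 and 2 above controls 1 and 2 but IFNg 3 below every other library. Among members with a mean of at least 10 it had the lowest ratio of IFNg 3 to the mean of IFNg 1 and 2, at 0.193, and it was named for that after its values were seen.

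HIST3H2A and HIST1H3D kept the common order without passing. HIST3H2A, on chromosome 1, was at 542, 659 and 1317 in the controls and at 816, 1032 and 1092 in IFNg, and its log2 difference was 0.70 without control 3 (limma adjusted p = 0.0512). HIST1H3D was at 2140, 2547 and 6317 in the controls and at 3348, 2740 and 4899 in IFNg, and its log2 difference was 0.61 without control 3 (limma adjusted p = 0.083). In both, every IFNg library lay above controls 1 and 2 and below control 3.

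Among the variants, those of H2A cover several roles. H2AFZ encodes H2A.Z, found at promoters, and was at 25320, 26344 and 35138 in the controls and at 26663, 26455 and 34851 in IFNg. H2AFV, the second H2A.Z gene, was at 8840, 7712 and 10779 in the controls and at 7541, 7053 and 10496 in IFNg. In both genes the library numbered 3 was the highest of its group and the groups overlapped, with log2 differences of 0.02 ± 0.14 and -0.13 ± 0.16 (SE). H2AFY, which encodes macroH2A1, a variant with a large extra domain, was at 9856, 9705 and 10730 in the controls and at 9793, 10441 and 11705 in IFNg, a log2 difference of 0.07 ± 0.10 (SE). H2AFJ was at 512, 589 and 809 in the controls and at 631, 613 and 576 in IFNg, a log2 difference of -0.04 ± 0.21 (SE), with all IFNg values inside the control range.

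H2AFX showed the order of libraries seen in most replication-dependent genes. It was at 3599, 4128 and 9117 in controls 1 to 3 and at 5026, 5923 and 6600 in IFNg 1 to 3. Control 3 stood at 2.36 times the mean of the other controls, the highest such ratio among the 8 variants with a mean of at least 100, whose median was 1.27. The log2 difference was 0.18 ± 0.27 (SE, limma adjusted p = 0.832) over the 6 libraries. It is also the variant with a stem-loop.

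H2AFY2, which encodes macroH2A2, was at 47.1, 23.4 and 46.7 in the controls and at 65.0, 89.9 and 76.5 in IFNg. All its IFNg values lay above all its control values, and the log2 difference was 1.02 ± 0.48 (SE), but the limma adjusted p was 0.343 at these low counts.

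For linker histone variants, H1F0, the H1.0 that accumulates in resting and differentiated cells, was at 9314, 8713 and 11146 in the controls and at 6841, 7447 and 9006 in IFNg. IFNg 1 and 2 were below all controls and IFNg 3 lay between controls 2 and 1. The log2 difference was -0.33 ± 0.12 (SE, limma adjusted p = 0.214). H1FX, which encodes H1.10, was at 6388, 7065 and 8085 in the controls and at 6498, 6295 and 6408 in IFNg, where IFNg values were close together and overlapped control 1, with a log2 difference of -0.16 ± 0.10 (SE). The prefix also took in H1FX-AS1, a non-coding RNA on the opposite strand that overlaps H1FX, and whether reads were counted by strand is not given in the sources used here.

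H3F3A and H3F3B both encode H3.3, the H3 put in outside replication. H3F3B was at 20124, 16606 and 20439 in the controls and at 19030, 18104 and 21557 in IFNg, with overlapping groups and a log2 difference of 0.04 ± 0.11 (SE). H3F3A was listed at 0 in controls 1 and 2 and IFNg 3, at 2.92 in control 3, and at 8.36 and 3.10 in IFNg 1 and 2. How reads of near-identical genes were counted is not given in the sources used here, and no fold is drawn from H3F3A. Of all 50-base windows of its transcripts, 11.7% also occur in transcripts of other genes, against 4% for H3F3B.

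**Figure D3:**
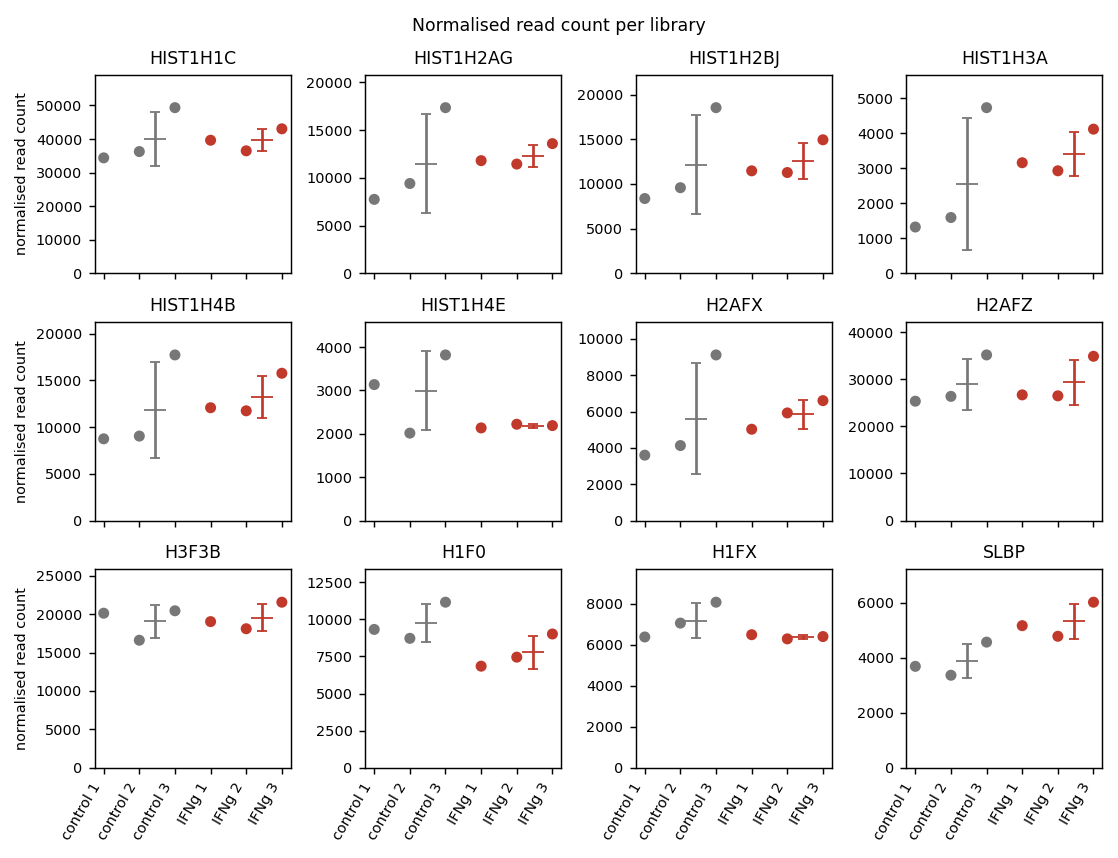
Normalised read count (vertical axis, from 0) of single genes in each of the 6 libraries (horizontal axis), 1 point per library, with cross bars for the group mean ± SD (n = 3). In H2AFX and HIST1H3A the control 3 point lies above every IFNg point (9117 and 4735), whereas in H1F0 IFNg 1 and 2 lie below every control.

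The replication-dependent genes stood high in control 3 as a class. Among the 43 with a mean of at least 10, control 3 was above controls 1 and 2 in 43 and above IFNg 3 in 39. The ratio of control 3 to the mean of controls 1 and 2 had a median of 1.91 (range 1.35 to 7.83), and 38 of 43 (88.4%) stood at 1.5 or more. The same ratio had a median of 1.31 over 10 variants (range 1.10 to 2.61) and 0.993 over 14111 genes, of which 8.34% stood at 1.5 or more. By family the median was 1.57 for H1, 1.75 for H2A, 1.91 for H2B, 2.27 for H3 and 1.99 for H4. These ratios were looked at because control 3 was known to stand apart and are given without a test.

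IFNg 3 also stood above the other libraries of its group, by less. It was above IFNg 1 and 2 in 39 of the 43 genes, with a median ratio of 1.32, beside 1.16 for the variants and 0.998 for all genes. Between the libraries numbered 1 and 2, the IFNg mean was above the control mean in 36 of 43 genes, with a median ratio of 1.19, and between the libraries numbered 3 the ratio of IFNg to control had a median of 0.811. The direction of the replication-dependent genes thus differed between these sets of libraries, a difference that was not tested. No batch, date or culture is given in the labels that would separate the libraries numbered 3.

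Replication-dependent genes for which polyadenylated forms are known were also raised in control 3. The median ratio over those 9 genes was 1.70 (range 1.40 to 2.07) and over the other 34 it was 1.98. Over 138 small nucleolar and Cajal body RNAs, another class without poly(A) tails that was added after the values were seen, the ratio had a median of 1.08. Of these RNAs 20.3% stood at 1.5 or more in control 3, beside 8.34% of all genes. Their ratio of IFNg 3 to the mean of IFNg 1 and 2 had a median of 1.22. In that ratio 31.6% stood at 1.5 or more, beside 7.23% of all genes. Whether the difference between control 3 and the others came from the RNA preparation or from the cells was not tested.

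Genes of DNA replication moved in the same direction in control 3. All 36 genes of an S-phase list were in the table, and 35 of them were higher in control 3 than the mean of controls 1 and 2, with a median ratio of 1.54. Their sum was 174852, 184709 and 270228 in controls 1 to 3 and 255711, 256620 and 299856 in IFNg 1 to 3. The ratio of IFNg 3 to control 3 had a median of 1.15 in this list and 0.811 in the replication-dependent histones, while between the libraries numbered 1 and 2 the IFNg to control ratio was 1.46 and 1.19. The 22 genes of a list for G2 and mitosis had a median of 1.29 in control 3, and their IFNg to control ratio in the libraries numbered 1 and 2 was 0.836. The part of cell cycle phase in the histone values was not tested.

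**Figure D4:**
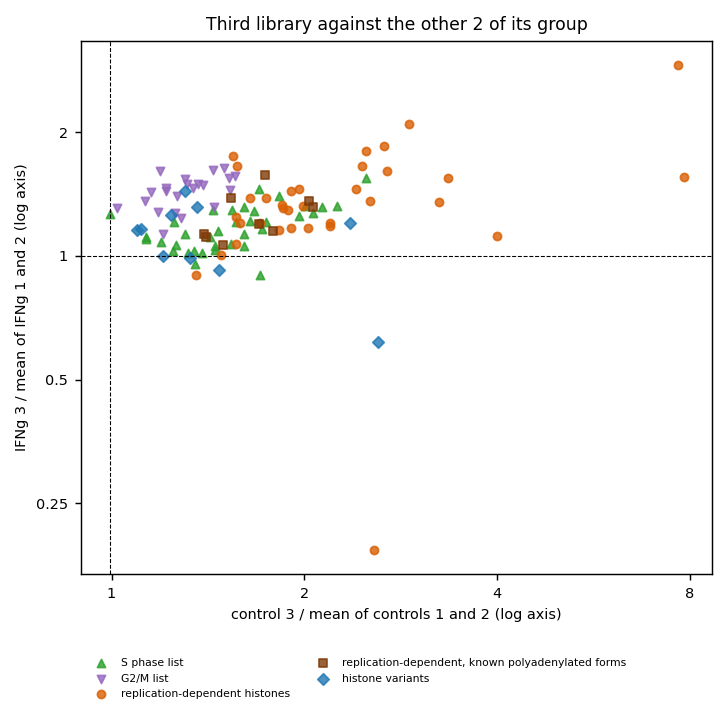
Each point is 1 gene with a mean of at least 10, at its control 3 value over the mean of controls 1 and 2 (horizontal, log axis) and its IFNg 3 value over the mean of IFNg 1 and 2 (vertical, log axis). Replication-dependent histones lie to the right of 1, with a median of 1.91, while G2 and mitosis genes lie nearer to 1 horizontally (1.29) and higher vertically (1.46).

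When control 3 was left out, 12 of the 47 replication-dependent genes were called higher and 0 lower by limma, where 5.45% of all genes were called higher and 2.93% lower. Of the 12 variants 1 was called higher, H2AFX, and 0 lower. The median log2 difference was 0.40 for the replication-dependent genes and 0.13 for the variants. In 28 of 47 replication-dependent genes and 3 of 12 variants all IFNg values then lay above both controls, where 18.9% of all genes did so. With both libraries numbered 3 left out, 12 replication-dependent genes were called higher, the same 12, where 5.67% of all genes were, so the calls did not need IFNg 3. Between the libraries numbered 1 and 2, both IFNg values were above both controls in 30 of 47 replication-dependent genes and below in 2, where 24.8% and 25% of all genes were so placed. These counts rest on controls 1 and 2 alone, since control 3 was left out for its own high values.

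The 12 genes were of 4 families. Control 3 was left out for its high values in these same genes, so the p-values below are not support for a rise. HIST1H3A had the largest difference without control 3, a log2 of 1.21 ± 0.16 (SE, limma adjusted p = 0.000303). Its limma adjusted p over the 6 libraries was 0.453. The other H3 genes were HIST1H3B, HIST1H3C and HIST1H3H, at log2 differences of 0.40, 0.46 and 0.48. In H2A, HIST1H2AH was higher by 0.81 ± 0.14 (SE, limma adjusted p = 0.00296) and HIST1H2AG by 0.52 ± 0.11 (SE, limma adjusted p = 0.00973). In H4, HIST1H4B was higher by 0.56 ± 0.12 (SE, limma adjusted p = 0.0113). HIST1H2BJ, the neighbour of HIST1H2AG, was higher by 0.48 ± 0.12 (SE, limma adjusted p = 0.0319). The remaining 4 were named after their values were seen: HIST1H2AB, HIST1H2AK, HIST1H2BB and HIST1H2BL, at log2 differences of 0.68, 0.98, 0.67 and 0.61. None was an H1 gene, and 1, HIST1H2BJ, was on the list of 9 genes with known polyadenylated forms.

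The values behind those last 4 genes show the same order as the others. HIST1H2AK, whose model on chromosome 6 is overlapped by that of HIST1H2BN on the opposite strand, was at 483, 560 and 1748 in the controls and at 866, 907 and 1375 in IFNg. HIST1H2AB was at 3394, 4221 and 9162 in the controls and at 5285, 5415 and 7769 in IFNg. HIST1H2BL was at 3900, 4711 and 9436 in the controls and at 6483, 5805 and 7397 in IFNg. In each, all IFNg libraries lay above controls 1 and 2 and below control 3. HIST1H2BB, at 4611, 5030 and 11873 in the controls and at 6907, 6074 and 10771 in IFNg, had that order too.

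H2AFX without control 3 was higher by a log2 of 0.59 ± 0.12 (SE, limma adjusted p = 0.00993), within the span of the 12 replication-dependent genes. It too was high in control 3, so the same limit holds. H1F0 moved the other way: its log2 difference was -0.22 ± 0.12 (SE, limma adjusted p = 0.304) without control 3, and without both libraries numbered 3 it fell by 0.34 on the log2 scale (SE 0.09, limma adjusted p = 0.025), where 3.85% of all genes were called lower. In the 4 libraries numbered 1 and 2, H2AFX and H1F0 were called with opposite signs. Neither was called over the 6 libraries, and control 3 was left out after its high values were seen.

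**Figure D5:**
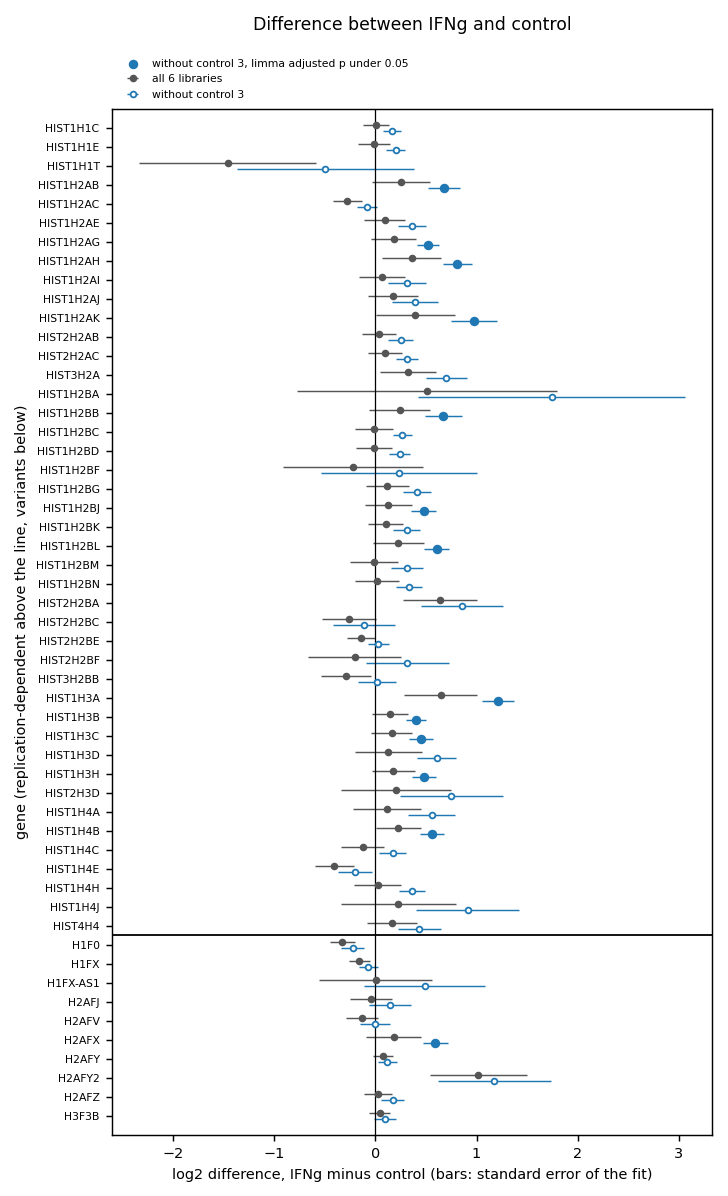
Log2 difference, IFNg minus control (horizontal axis, bars are the standard error of the fit), for the 53 kept histone genes with a mean of at least 10 (vertical axis), over all 6 libraries (grey) and without control 3 (blue, filled where the limma adjusted p is under 0.05). No gene passed with 6 libraries, and 12 replication-dependent genes and H2AFX passed without control 3.

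Genes on a list for histone mRNA processing, which also holds factors of its transcription and decay, were tested in the same 6-library fit. Of 21 genes on that list, 1 rose and 0 fell, where 3.27% of all genes rose and 1.05% fell. The median log2 difference was 0.01. Without control 3, 3 rose and 0 fell, where 5.45% of all genes rose and 2.93% fell. ERI1, the exonuclease that trims and degrades histone mRNA at the stem-loop, was at 4125, 3531 and 3917 in the controls and at 6616, 7419 and 7385 in IFNg. All IFNg values lay above all controls, and it rose by a log2 of 0.89 ± 0.10 (SE, limma adjusted p = 0.000166), without control 3 standing apart. SLBP, which binds the stem-loop, was at 3688, 3364 and 4568 in the controls and at 5166, 4781 and 6019 in IFNg. Its groups did not overlap, and its log2 difference of 0.46 ± 0.13 (SE) missed the threshold at a limma adjusted p of 0.0786. Without control 3, its highest control, it passed at a limma adjusted p of 0.0071. NPAT, the cyclin E-CDK2 substrate that activates histone gene transcription, was at 3598, 3838 and 4721 in the controls and at 4286, 4068 and 4737 in IFNg, which gave 0.11 ± 0.12 (SE) on the log2 scale, at a limma adjusted p of 0.745.

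Of 27 genes on a list of histone chaperones, which escort histones to and from DNA, 0 rose and 1 fell. Of all genes 3.27% rose and 1.05% fell in that fit. The median log2 difference of the list was 0.06. Without control 3, 6 rose and 1 fell, where 5.45% of all genes rose and 2.93% fell. Without both libraries numbered 3, 5 rose and 2 fell, where 5.67% of all genes rose and 3.85% fell. UBN1, a subunit of the HIRA complex that deposits H3.3, was at 10541, 11158 and 10372 in the controls and at 7954, 8678 and 8362 in IFNg. Its groups did not overlap, and it fell by 0.36 on the log2 scale (SE 0.09, limma adjusted p = 0.0351). Its call was lost when any 1 library other than control 3 was left out. Of the S-phase list 5 of 36 rose (MCM3, MCM4, CCNE2, POLA2 and CLSPN) and 0 fell, with a median of 0.41. Without control 3 the number that rose was 25, where 5.45% of all genes rose. Control 3 was above the mean of controls 1 and 2 in 35 of the 36 S-phase genes and in 21 of the 27 chaperones. Counts of genes that rose without control 3 are therefore not support for a rise. Without any 1 of the other 5 libraries the number of S-phase genes that rose was 0. Of the 22 genes for G2 and mitosis 0 rose and 0 fell, with a median of -0.22. By limma 6 were at an unadjusted p under 0.05, and the share of all genes there is not given here. The median was -0.12 without control 3, where again 0 rose and 0 fell. Without both libraries numbered 3, 9 fell, where 3.85% of all genes fell. Without IFNg 3, 4 fell, and the share of all genes in that fit is not given here. Of the 9 replication-dependent genes with known polyadenylated forms 0 rose and 0 fell, with a median of 0.01. Without control 3, 1 rose, where 5.45% of all genes rose, and the median was 0.27.

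The remaining members were read at low depth or with uncertain identity. Of the replication-dependent genes 40 of 47 had a mean of at least 100, with log2 differences from -0.41 to 0.64, and 4 had a mean under 10. Of the variants 8 of 12 had a mean of at least 100, and 2, H3F3A and H3F3C, had a mean under 10. Just inside the rule, HIST1H2AA, a testis-type H2A, had a value above 0 in 3 libraries and reached 7.23. Just outside it, HIST3H3, a testis-type H3, had such a value in 2 and reached 4.63. The other genes left out by the rule were H1FOO, HIST1H1A, HIST1H2AD, HIST1H2AL, HIST1H2BI, HIST1H3G, HIST1H3J and HIST1H4D.

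Histone genes of a family are near copies, so reads may be shared. In 7 members at least 50% of the 50-base windows of their transcripts also occur in another gene: HIST1H2AI, HIST1H2AJ, HIST1H2BK, HIST1H3D, HIST1H4J, HIST2H2BA and HIST2H3D. In 23 members no window was shared. The share was 100% for HIST1H3D, 74.1% for HIST1H2BK and 73.6% for HIST2H2BA, and the values of these 3 genes, described above, are uncertain for that reason.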

How the data were processed

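The 6 libraries (3 control, 3 IFNg) were read from 1 deposited table of the whole series, with 0 columns of other samples. Per the submitters' processing notes, the tools were FastQC 0.11.3, TopHat2 2.0.13, Cufflinks and Cuffdiff 2.2.1 and the build hg19 (GRCh37); the sources used here do not name the read counter, strand setting or scaling. The table is named for RPKM, but the deposited values are a signal per gene. Every value above 0 (100% in each library) is a whole multiple, within 0.001 of a read, of 1 step per library. Those steps are the reciprocals of median-of-ratios size factors. Depth was therefore 59556948 to 83501954 reads, and means and SDs carry counting error and library spread together.

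Rows reaching 0.5 in 3 or more libraries (15546 genes) were tested with limma 3.58.1 (R 4.3.3) on log2(value + 1) with a variance trend and group only, and p-values were adjusted over all of them by Benjamini-Hochberg; fold changes on this scale understate those of low genes. The alternatives were edgeR 4.0.16 and DESeq2 1.42.0 on the recovered reads, other pseudocounts and filters, the replicate block, a term for the libraries numbered 3, and leaving out libraries. The fit was tested on simulated data. Sums and ratios were not tested.

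The members and gene lists were chosen with earlier results of these data known. Named genes are members past an adjusted p of 0.05, the 3 with the highest mean in each replication-dependent family, variants with a mean of at least 100, the 5 largest differences among members with a mean of at least 10, SLBP, NPAT, and processing or chaperone genes that passed. Coordinates and sequences are from GENCODE release 29 and RefSeq, not from the submitters' build. MCM2 is on both the chaperone and the S-phase list.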

Additional observations from a re-analysis of the deposited data

How the results depend on the processing

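Precision is limited by 3 libraries a group, and by depth for the members with few reads. The replicate numbers are shared by the labels, which do not say whether libraries of 1 number belong together. The correlation of deviations was 0.0437, 0.0209 and 0.111 for numbers 1, 2 and 3. Controls 1 and 3 correlated best with their own number, and control 2 about equally with IFNg 1 (0.0216) and IFNg 2. Pairing by number was therefore not settled, and the main fit did not use it. With the replicate block, 1 replication-dependent gene was called higher (HIST1H3A, limma adjusted p = 0.00831; 5.89% of all genes) and 1 variant lower (H1F0, limma adjusted p = 0.0118; 3.53%), and SLBP passed (limma adjusted p = 0.00131). With a term for the libraries numbered 3 the counts were also 1 and 1 (HIST1H3A, limma adjusted p = 0.0279, 6.21%; H1F0, limma adjusted p = 0.00742, 3.69%). Without both libraries numbered 3, 12 replication-dependent genes and 1 variant were called higher and 1 variant lower. Leaving out 1 library at a time gave 0 to 12 replication-dependent genes higher, 0 to 1 lower and 0 to 1 variants higher; the 12 were without control 3. The median of the replication-dependent genes was -0.094 without control 1, -0.038 without control 2 and -0.054 without IFNg 3. In the gene lists, with the replicate block and with the term for number 3 alike, 3 processing genes, 6 chaperones and 22 S-phase genes were called higher, and 2 chaperones and 9 genes for G2 and mitosis lower. Without both libraries numbered 3 these counts were 2, 5, 23, 2 and 9, where 5.67% of all genes were called higher and 3.85% lower. Leaving out 1 library gave 1 to 3 processing genes, 0 to 6 chaperones and 0 to 25 S-phase genes higher, and 0 to 1 chaperones and 0 to 4 genes for G2 and mitosis lower. Shares of all genes are not given here for the fits without control 1 or any 1 IFNg library. DESeq2 called 3 processing genes, 1 chaperone and 8 S-phase genes higher (4.44% of all genes). In edgeR 2 S-phase genes were called higher (3.47% of all genes), and scaling to library totals also gave 2. The fit without the variance trend called 0 S-phase genes higher and 0 chaperones lower.

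The sign turned in edgeR and DESeq2 for HIST1H1C (-0.0099 and -0.010), HIST1H4H (-0.047 and -0.047), HIST1H2BA (-0.54 and -0.54) and HIST1H3D (-0.0026 and -0.0024). In these genes the IFNg mean over the control mean was 0.993, 0.968, 0.691 and 0.998. Without both libraries numbered 3 the sign turned for HIST1H1E (0.17), HIST1H2BC (0.20), HIST1H4C (0.039), H2AFJ (0.18) and HIST1H2BF (0.99). The cause was not tested. Leaving out 1 library turned the sign of 23 of 42 named genes, whose log2 differences ranged from -0.094 to 0.17 (HIST1H1C), -0.19 to 0.20 (HIST1H1E), -0.062 to 0.52 (HIST1H2AG), -0.068 to 0.36 (HIST1H2AE), -0.058 to 0.31 (HIST1H2BK), -0.20 to 0.27 (HIST1H2BC), -0.10 to 0.48 (HIST1H2BJ), -0.070 to 0.45 (HIST1H3C), -0.025 to 0.48 (HIST1H3H), -0.0017 to 0.40 (HIST1H3B), -0.17 to 0.36 (HIST1H4H), -0.29 to 0.17 (HIST1H4C), -0.19 to 0.14 (H2AFJ), -0.078 to 0.59 (H2AFX), -0.11 to 0.17 (H2AFZ), -0.056 to 0.094 (H3F3B), -1.03 to 1.74 (HIST1H2BA), -0.038 to 0.68 (HIST1H2AB), -0.010 to 0.67 (HIST1H2BB), -0.030 to 0.61 (HIST1H2BL), -0.47 to 0.018 (HIST3H2BB), -0.65 to 0.54 (HIST1H2BF) and -0.17 to 0.61 (HIST1H3D). UBN1 did not pass without the variance trend (limma adjusted p = 0.165).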
